A study of Asparagus officinalis with 12 samples.

Results

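Stem segments of the asparagus cultivar 'Fengdao 2' were compared between the last and the first of 4 stages of elongation, when the stems were 60 cm high (H-60) and 10 cm high (H-10). The comparison took 6 of the 12 libraries of the series, 3 for H-60 and 3 for H-10, and all genes with an FPKM (fragments scaled by the authors to gene length and library total) of at least 1 in at least 3 of the 12 libraries. These were 20352 of the 35166 genes in the table. The H-60 segments lay 17 to 20 cm above the surface and the H-10 segments 3 to 6 cm above it. Both came from untreated tender stems of 1 cultivar chosen within the same range of stem diameters. The other 6 libraries came from stems of 40 cm (H-40) and 25 cm (H-25), both cut at 17 to 20 cm. Stem height and segment position therefore differ together between H-60 and H-10 and cannot be told apart. The change between H-40 and H-25 is given beside the main comparison and shares no library with H-60 or H-10. It holds the height of the segment above the surface, but not its distance from the tip of the stem. The library columns carry a stage number in place of the height and were matched to the 4 heights by rank. The sources used here do not say how many stems a library holds, so the spread behind each p-value may be technical.

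A young asparagus spear grows by cell division near the tip and by the expansion of cells whose thin primary walls are loosened by expansins and xyloglucan endotransglucosylases. As a segment matures, division and expansion stop, and vessels and fibres lay down a secondary wall of cellulose, xylan and lignin. Cellulose is spun by complexes of CESA proteins in the plasma membrane, and lignin is formed when laccases and peroxidases oxidise monolignols in the wall. In asparagus this lignification makes the lower stem tough.

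The 3 H-60 libraries held 13468440 to 14458729 fragments and the 3 H-10 libraries 13704146 to 16980659. The R2 of log2(FPKM + 1) was 0.956 to 0.967 between H-60 libraries, 0.937 to 0.976 between H-10 libraries, and 0.793 to 0.829 between a library of H-60 and one of H-10. A differentially expressed gene (DEG) had an adjusted p of at most 0.05 (limma, Benjamini-Hochberg over all 20352 genes) and a log2 fold change of 1 or more in either direction, always H-60 minus H-10 on the log2(FPKM + 1) scale. This scale understates the change of low genes.

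Of the genes tested, 5536 (27.2%) were DEGs, 2750 (13.5%) higher and 2786 (13.7%) lower at H-60. The median log2 fold change of all tested genes was -3.14e-05, which the deposited scaling between libraries holds near 0. By TPM (library totals set equal) that median was -0.063, with 2851 genes higher and 3318 lower. In the main fit the median standard error of a gene was 0.257. The rises had a longer tail, with 355 genes higher and 237 lower by at least 3 on the log2 scale, and 42 higher and 26 lower by at least 5. The libraries of both stages did not overlap for 97.7% of the DEGs, against 57.6% of all tested genes. All 3 H-10 libraries were at 0 for 109 of the DEGs that rose, and all 3 H-60 libraries for 94 of those that fell. Protein coding genes made up 2165 of the rises and 2327 of the falls, and lncRNAs 202 and 186.

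**Figure D1:**
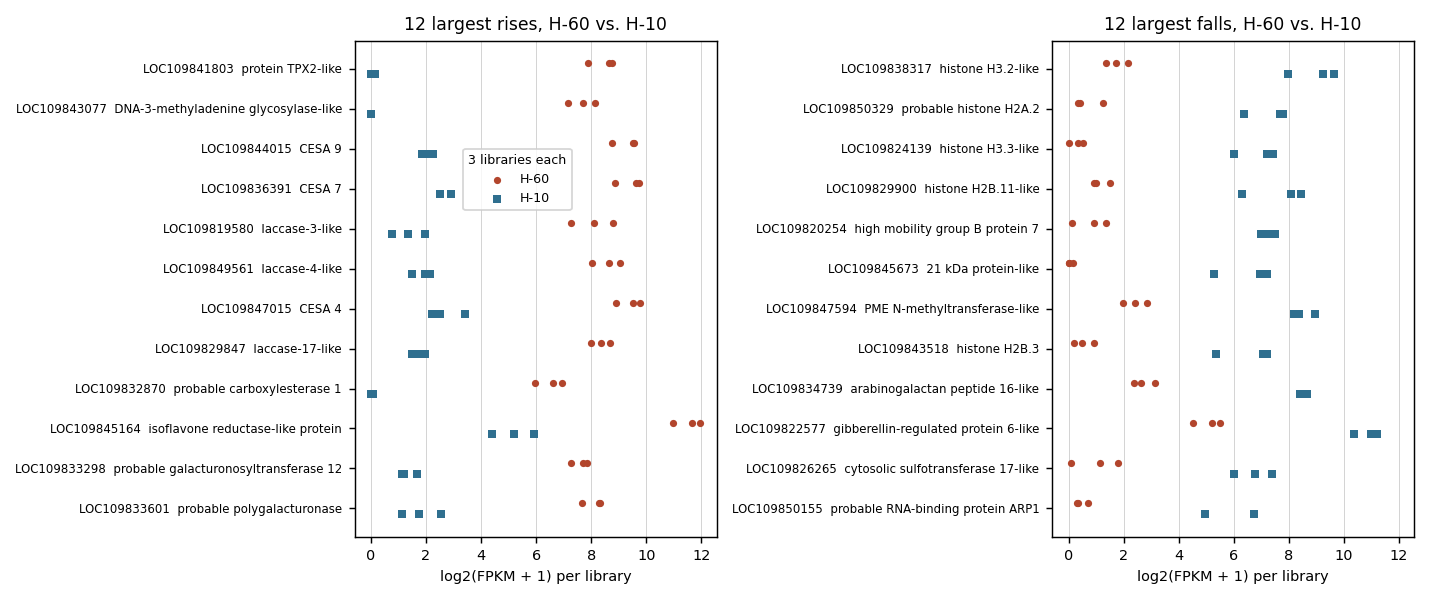
Levels of the 12 largest rises (left) and the 12 largest falls (right) among DEGs with a description, with log2(FPKM + 1) on the x axis and 1 point per library, circles for H-60 and squares for H-10. Genes were eligible only if their libraries did not overlap and their higher stage averaged 10 FPKM or more. The separation of circles and squares therefore follows from this choice and is not a finding. The rises include cellulose synthases and laccases and the falls histones.

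The cellulose synthases of the secondary wall were low at H-10 and abundant at H-60. CESA7 (LOC109836391, chromosome 4 from 3852514 to 3858746 in Aspof.V1) stood at 860, 794 and 465 FPKM in the H-60 libraries and at 6.49, 4.69 and 4.67 FPKM in the H-10 libraries. CESA4 (LOC109847015, chromosome 1 from 129214210 to 129223066) had 866, 736 and 476 FPKM at H-60, against 9.61, 4.71 and 3.62 FPKM at H-10. A gene described as CESA9 (LOC109844015, chromosome 5 from 77875272 to 77882091) had 759, 733 and 435 FPKM at H-60, against 3.76, 3.40 and 2.63 FPKM at H-10. All 3 genes were far higher in every H-60 library than in any H-10 library, and H-60 replicate 3 was the lowest of its stage in each. Their log2 fold changes were 6.78 (SE 0.37), 6.69 (SE 0.41) and 7.20 (SE 0.47), with limma adjusted p-values of 2.7e-07, 5.4e-07 and 7.0e-07. CESA4 and CESA7 form the secondary wall complex in Arabidopsis and rice, together with a further subunit. Besides CESA4 and CESA7, 13 genes described as CESA were tested, CESA9 among them. Of the 13, 5 rose (3 without H-60 replicate 3). A further 2 fell (0 without that library, 1 without H-60 replicate 1 or without replicate 1 or 2 of H-10). The most abundant of the 13, LOC109845878 (CESA1), differed little (log2 fold change 0.18, SE 0.23). It had 334, 360 and 385 FPKM at H-60 and 418, 293 and 257 FPKM at H-10.

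Enzymes that build xylan rose in part. Of 19 genes for xylan and mannan synthesis, 9 rose and 2 fell (1 without H-60 replicate 1), with a list median of 1.06. IRX14H (LOC109822132), a xylosyltransferase of the xylan backbone, had 430, 388 and 249 FPKM at H-60 and 12, 7.40 and 4.95 FPKM at H-10, a log2 fold change of 5.32 (SE 0.38). IRX9 (LOC109850667) had 377, 374 and 254 FPKM at H-60 and 21.3, 9.96 and 5.85 FPKM at H-10 (4.80, SE 0.56). IRX10L (LOC109823871) had 816, 621 and 431 FPKM at H-60 and 61.8, 56.7 and 50.2 FPKM at H-10 (3.40, SE 0.23), and no H-60 library overlapped an H-10 library for either. The glucuronoxylan 4-O-methyltransferase LOC109826029, which methylates xylan side chains, had 535, 366 and 268 FPKM at H-60 against 146, 100 and 74.0 FPKM at H-10. The galacturonosyltransferase 12 gene LOC109833298, whose Arabidopsis relative is needed for normal xylan in vessel walls, was at 231, 208 and 155 FPKM at H-60 and at 2.20, 1.17 and 1.27 FPKM at H-10, a change of 6.29 (SE 0.37). The opposite change was seen for the mannan synthase LOC109832553, with 0.715, 0.462 and 1.17 FPKM at H-60 and 17.9, 14.3 and 17.2 FPKM at H-10, or -3.30 (SE 0.34).

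Some proteins that organise cellulose deposition rose as well. COBRA-like protein 4 (LOC109851253), whose relatives in rice and maize are needed for stem strength, had 519, 478 and 266 FPKM at H-60 against 5.91, 6.98 and 4.62 FPKM at H-10, a log2 fold change of 5.90 (SE 0.52). Fasciclin-like arabinogalactan protein 12 (LOC109850468) reached 2859, 2957 and 1740 FPKM at H-60 against 215, 127 and 34.5 FPKM at H-10. Its H-10 libraries differed widely among themselves, and all lay below H-60. The list of COBRA and fasciclin-like proteins moved both ways, with 4 of 14 higher and 4 lower, and fasciclin-like protein 1 (LOC109840216) had 3.64, 3.69 and 4.24 FPKM at H-60 and 29.5, 62.9 and 73.1 FPKM at H-10, or -3.44.

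The largest rise among described genes was a TPX2-like protein (LOC109841803, chromosome 5 from 48438352 to 48439779). TPX2 proteins bind microtubules. The gene had 402, 426 and 236 FPKM at H-60, against 0, 0 and 0.101 FPKM at H-10, where 1 fragment was counted in all, a log2 fold change of 8.38 (SE 0.31, adjusted p = 1.9e-08). The ratio of the means was 10500, with an interval of 1890 to 417000 that covers counting error only. Second was a DNA-3-methyladenine glycosylase-like gene (LOC109843077, chromosome 5 from 95087395 to 95091269), of a family of DNA repair enzymes. It had 282, 208 and 142 FPKM at H-60 and no fragment in any H-10 library, and was at least 4050-fold higher at H-60 with 3 fragments over the 3 H-10 libraries as the floor. Tubulins, the building blocks of microtubules, moved both ways, with 7 of 20 higher, 5 lower and a median of 0.000418. The alpha chain LOC109833162 had 2572, 3181 and 3078 FPKM at H-60 against 486, 627 and 523 FPKM at H-10, and the beta-1 chain LOC109824970 had 3.74, 3.61 and 3.10 FPKM at H-60 against 41.9, 60.0 and 71.3 FPKM at H-10. Near-identical tubulin copies can share reads, so the split between them is uncertain.

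Lignin genes rose at steps across the pathway. Of 55 genes for monolignol synthesis, 27 rose and 3 fell (49.1% and 5.45%, against 13.5% and 13.7% of all genes). Phenylalanine ammonia-lyase (LOC109826061), which opens the pathway, had 582, 527 and 389 FPKM at H-60 against 17.1, 26.4 and 21.7 FPKM at H-10, a log2 fold change of 4.46 (SE 0.38). Cinnamate 4-monooxygenase (LOC109846559), the next enzyme, had 1018, 783 and 589 FPKM at H-60 against 48.2, 86.9 and 40.8 FPKM at H-10. The 4-coumarate-CoA ligase LOC109840460 had 721, 614 and 483 FPKM at H-60 against 12.7, 20.8 and 15.3 FPKM at H-10, or 5.14 (SE 0.33). All 3 genes were higher in each H-60 library than in each H-10 library. The cinnamyl alcohol dehydrogenase LOC109841100, which makes the final alcohols, had 669, 707 and 542 FPKM at H-60 against 37.7, 47 and 45.2 FPKM at H-10, or 3.85 (SE 0.36). A second gene of that family, LOC109849900, went the other way, with 5.68, 2.42 and 1.44 FPKM at H-60 and 18.6, 26.5 and 10.2 FPKM at H-10. Monolignol genes together took 0.545% to 0.792% of the fragments at H-60 and 0.124% to 0.17% at H-10.

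Laccases were the list with the highest share of rises among those with at least 8 tested members. Of 10 tested, 9 rose and none fell by limma (0 lower also by voom on recovered fragments and at an unadjusted p of at most 0.05, which 51.7% of all tested genes passed in either direction), with a median of 3.20. Laccase-4-like (LOC109849561, chromosome 7 from 939376 to 942573) had 531, 397 and 258 FPKM at H-60 against 3.42, 2.88 and 1.84 FPKM at H-10. Laccase-17-like (LOC109829847) had 407, 329 and 252 FPKM at H-60 against 2.28, 2.88 and 1.82 FPKM at H-10, and laccase-3-like (LOC109819580) had 439, 275 and 154 FPKM at H-60 against 2.86, 1.53 and 0.713 FPKM at H-10. The 3 H-60 libraries stood in the same order for each of these genes, replicate 1 highest and replicate 3 lowest, and no H-10 library came near them. The log2 fold changes were 6.70 (SE 0.42), 6.62 (SE 0.51) and 6.70 (SE 0.38). Laccase-4 and laccase-17 polymerise lignin in Arabidopsis stems.

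Class III peroxidases were more mixed, with 11 of 24 higher and 2 lower (1 without H-10 replicate 2 or H-60 replicate 3). Peroxidase 64 (LOC109850189) had 1281, 1036 and 1154 FPKM at H-60 against 263, 140 and 14.8 FPKM at H-10, and the H-10 libraries spread widely. Cationic peroxidase 1-like (LOC109850587) had 36.8, 35.2 and 22.4 FPKM at H-60 against 0.221, 0.0511 and 0 FPKM at H-10, a change of 4.87 (SE 0.24). Peroxidase 50-like (LOC109821069) was the clearest fall of the family, with 33.1, 32.5 and 44.6 FPKM at H-60 and 318, 346 and 521 FPKM at H-10, or -3.37 (SE 0.25). An isoflavone reductase-like gene (LOC109845164), of a reductase family in phenylpropanoid metabolism, was among the most abundant rises, with 4004, 3222 and 1990 FPKM at H-60 and 59.4, 35.4 and 20.2 FPKM at H-10. Proteases that act in maturing and dying cells gave 7 rises and 4 falls among 23 (30.4% and 17.4%, against 13.5% and 13.7% of all tested genes). The vacuolar-processing enzyme LOC109840805 had 977, 1222 and 1422 FPKM at H-60 against 146, 93.3 and 91.5 FPKM at H-10, a change of 3.46 (SE 0.32), and zingipain-2-like (LOC109842747), a cysteine protease, had 6262, 3897 and 2989 FPKM at H-60 against 1546, 1711 and 713 FPKM at H-10.

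**Figure D2:**
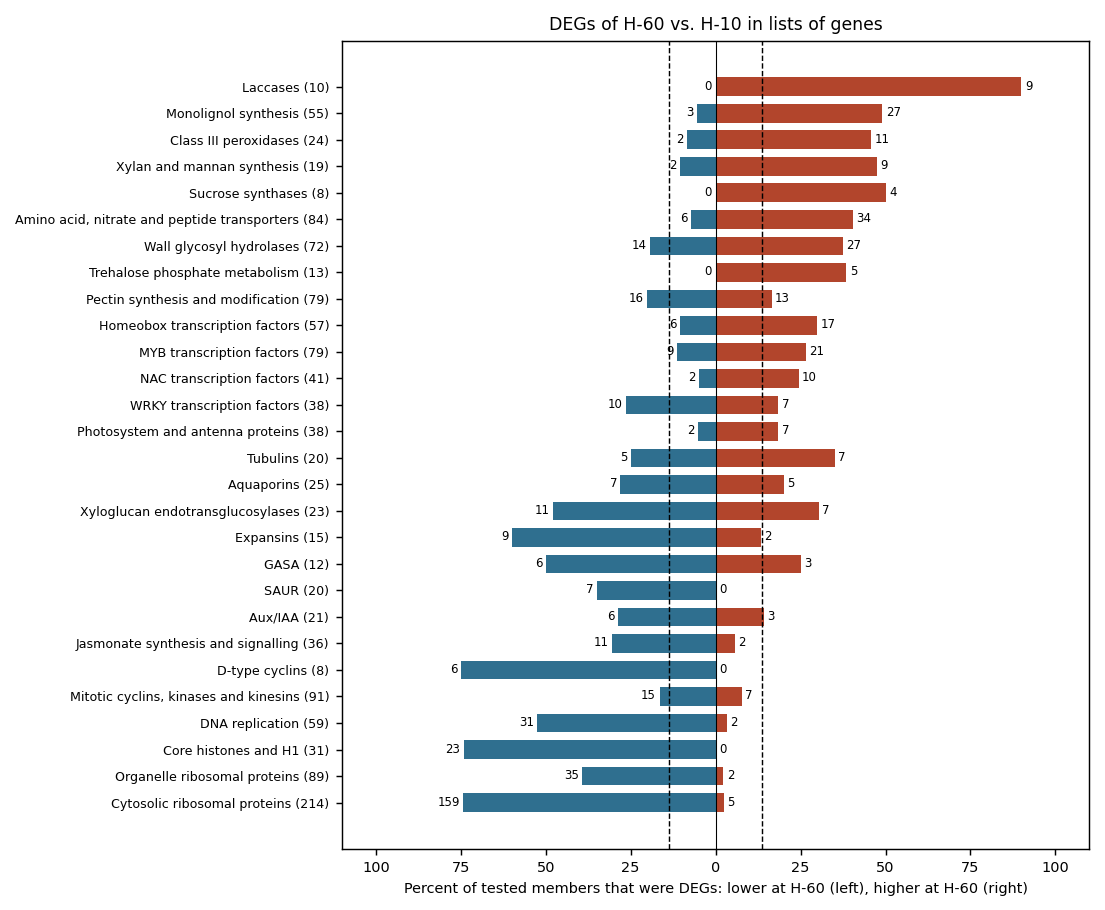
Percent of the tested members of lists of genes that were DEGs, with members lower at H-60 drawn to the left and members higher at H-60 to the right, the number of genes at each bar and the number tested in brackets. The dashed lines mark the share of all tested genes (13.7% lower, 13.5% higher), and wall and lignin lists extend to the right of it while ribosome, histone and D-type cyclin lists extend to the left.

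Histones were prominent among the falls. Of 31 core histone and H1 genes, 23 fell and none rose by limma (0 higher also at an unadjusted p of at most 0.05 and by voom), with a median of -2.65. Histone H3.2-like (LOC109838317, chromosome 4 from 20840703 to 20841354), the replication-coupled form of H3, had 2.30, 1.54 and 3.45 FPKM at H-60 against 253, 609 and 808 FPKM at H-10, a log2 fold change of -7.23 (SE 0.50, adjusted p = 1.1e-06). The H2A.2 gene LOC109850329 had 1.38, 0.318 and 0.281 FPKM at H-60 against 83.0, 205 and 221 FPKM at H-10, and the H2B.11-like gene LOC109829900 had 1.02, 0.880 and 1.85 FPKM at H-60 against 77.2, 269 and 344 FPKM at H-10. In all 3 genes the lowest H-10 library was replicate 1, still well above every H-60 library. A histone H3.3 gene (LOC109832785), the form made outside DNA replication, was not called, with 669, 635 and 603 FPKM at H-60 and 629, 852 and 842 FPKM at H-10 (-0.27, SE 0.20). A second gene with that description, H3.3-like (LOC109824139), was among the 12 largest falls, with 0.267, 0.431 and 0 FPKM at H-60 against 63.1, 148 and 170 FPKM at H-10 (-6.59, SE 0.52). Histone copies are nearly identical in sequence, so the split of reads among them is uncertain. The summed level of the list was 1037 to 1117 FPKM at H-60 and 3059 to 6738 FPKM at H-10.

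Genes of DNA replication fell with them, 31 of 59 against 2 that rose. Proliferating cell nuclear antigen (LOC109821994), the sliding clamp of the replication fork, had 11.9, 19.3 and 50.4 FPKM at H-60 against 187, 209 and 289 FPKM at H-10. Ribonucleotide reductase (LOC109836553), which makes the DNA precursors, had 4.32, 2.68 and 3.83 FPKM at H-60 against 79.0, 113 and 146 FPKM at H-10, a change of -4.60 (SE 0.35). The D-type cyclins, which admit cells to the cycle, fell in 6 of 8, and none rose by limma, by voom or at an unadjusted p of at most 0.05. Cyclin-D1-1-like (LOC109822588) had 8.06, 6.40 and 27.4 FPKM at H-60 and 43.4, 57.3 and 88.6 FPKM at H-10, and H-60 replicate 3 was the highest of its stage, as it was for the sliding clamp. The list of mitotic cyclins, kinases and kinesins moved less clearly. Of 91 genes 15 fell (16.5%, near the 13.7% of all tested genes, and 28 at a pseudocount of 0.1) and 7 rose, and its summed level was higher at H-60, 1346 to 1865 FPKM, against 940 to 1109 FPKM at H-10. The sum includes TPX2-like and the kinesin light chain-related gene LOC109828989, which had 268, 261 and 176 FPKM at H-60 and 58.3, 79.9 and 73.3 FPKM at H-10 (1.71, SE 0.26). On the falling side, the kinesin KIN-UA (LOC109838514) had 1.23, 1.43 and 1.5 FPKM at H-60 and 15, 18 and 22.1 FPKM at H-10, or -3.01. The inhibitors of cyclin-dependent kinases were split. SMR2-like (LOC109820295), a brake on the cycle, had 42.0, 40.9 and 28.5 FPKM at H-60 against 9.36, 4.51 and 2.33 FPKM at H-10, and inhibitor 4-like (LOC109836290) rose by 1.52. An inhibitor 5-like gene (LOC109825885) had 5.28, 3.10 and 3.26 FPKM at H-60 and 5.89, 20.8 and 21.3 FPKM at H-10, a change of -1.64.

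Most genes for cytosolic ribosomal proteins fell. Of 214 genes for cytosolic ribosomal proteins, 159 (74.3%) fell and 5 rose, with a median of -1.53. They took 1.22% to 1.52% of the fragments at H-60 and 3.24% to 4.44% at H-10. The steepest fall was L38 (LOC109823929), with 26.6, 19.0 and 21.4 FPKM at H-60 against 451, 336 and 365 FPKM at H-10, or -4.05 (SE 0.51). Copies of 1 protein did not always move together, and L10a-like (LOC109842726) had 828, 999 and 1302 FPKM at H-60 and 934, 693 and 799 FPKM at H-10. L19-3-like (LOC109847103) stood at 17.1, 10.1 and 13.8 FPKM at H-60 and at 0 in all H-10 libraries, at least 196-fold higher by the same floor. These families hold near-identical copies, and a gene at 0 beside expressed copies may depend on how the reads were assigned, which was not tested. Of 89 genes for ribosomal proteins of plastids and mitochondria, 35 fell and 2 rose.

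**Figure D3:**
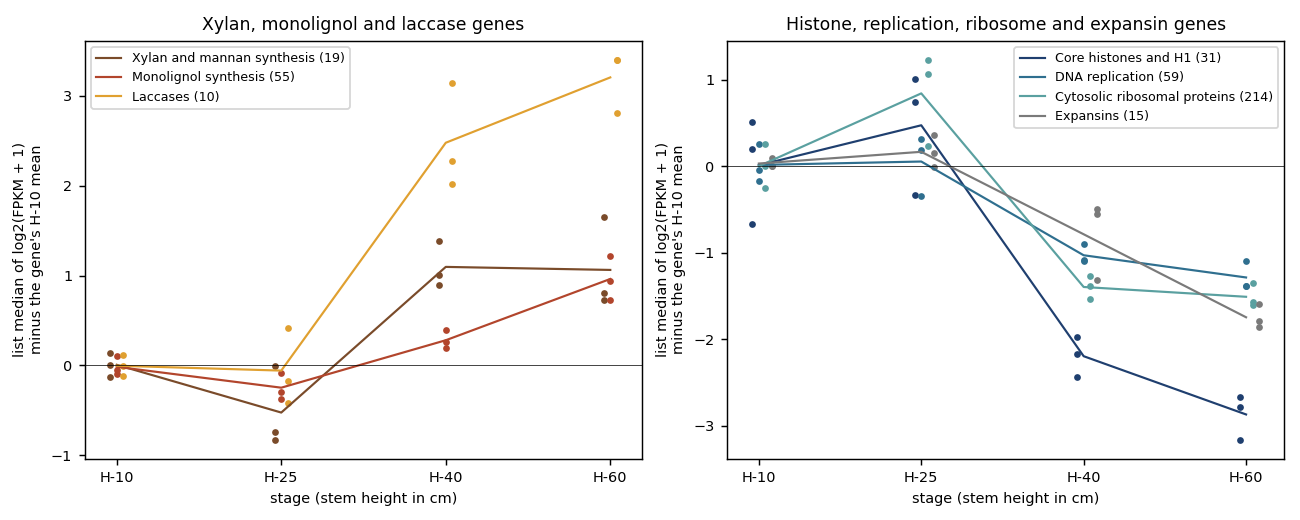
Medians of lists of genes over the 4 stages, as log2(FPKM + 1) minus the mean of each gene at H-10, with 1 point per library, lines through the stage means and the number of tested genes in brackets. The H-25 means of the lists lie near 0 or on the side away from H-60. The H-40 means lie close to H-60 for the xylan, replication and ribosome lists and about midway or beyond for the others, except monolignol synthesis. The median of that list rose more in the last step than in the middle one. Its summed level (not drawn) did not, with means of 731 FPKM at H-25, 2985 FPKM at H-40 and 4539 FPKM at H-60.

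Among genes that loosen the primary wall, the expansins mostly fell. Of 15 expansins, 9 fell and 2 rose (4 by voom), with a median of -1.75. Expansin-A2-like (LOC109840564) had 27.2, 15.3 and 66.2 FPKM at H-60 against 321, 325 and 240 FPKM at H-10, and expansin-A10-like (LOC109832545) had 12.4, 3.51 and 4.66 FPKM at H-60 against 156, 95.8 and 92.0 FPKM at H-10. Expansin-B3-like (LOC109839409) had the largest fall, with 0.888, 0.718 and 2.96 FPKM at H-60 and 87.4, 98.3 and 40.1 FPKM at H-10, or -4.93 (SE 0.44). All 3 were lower in each H-60 library than in any of H-10. Expansin-like B1 (LOC109837180) went against the list, with 5.0, 6.38 and 8.80 FPKM at H-60 and 0, 0.453 and 0.634 FPKM at H-10.

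Xyloglucan endotransglucosylases, which cut and rejoin wall xyloglucan, fell in 11 of 23 and rose in 7, and a pair of genes with the same description, XTH23, lay at opposite ends. LOC109841353 had 1775, 1785 and 1731 FPKM at H-60 against 92.6, 54.1 and 52.1 FPKM at H-10, a change of 4.76 (SE 0.67). LOC109840405 (chromosome 5 from 101630953 to 101632222) had 10.2, 10.8 and 7.59 FPKM at H-60 against 461, 702 and 405 FPKM at H-10, a change of -5.61 (SE 0.37). The sign of the list median depended on the stages compared, -0.78 for H-60 minus H-10 and 0.67 for H-40 minus H-25. The summed level of the list did not fall, with 3329 to 4013 FPKM at H-60 and 2167 to 3569 FPKM at H-10. Pectin genes also moved both ways, with 13 of 79 higher and 16 lower. These shares were 16.5% and 20.3%, against 13.5% and 13.7% of all tested genes. The polygalacturonase LOC109833601, a pectin-cutting enzyme, had 316, 308 and 203 FPKM at H-60 against 4.85, 2.39 and 1.19 FPKM at H-10, and the polygalacturonase LOC109843348 had 4.66, 6.25 and 11.6 FPKM at H-60 against 101, 76.1 and 137 FPKM at H-10.

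Among 72 hydrolases of wall polysaccharides, 27 rose and 14 fell. Beta-D-xylosidase 1-like (LOC109819692) had 871, 819 and 560 FPKM at H-60 against 26.6, 14.1 and 10.7 FPKM at H-10, and a beta-galactosidase (LOC109828085) had 1138, 928 and 908 FPKM at H-60 against 54.8, 27.3 and 23.5 FPKM at H-10. Endoglucanases, which cut glucan chains, went both ways. Endoglucanase 6-like (LOC109828869) had 6.90, 2.36 and 14.8 FPKM at H-60 and 196, 240 and 206 FPKM at H-10 (-4.84), while endoglucanase 10-like (LOC109851506) had 1558, 1551 and 1069 FPKM at H-60 and 154, 203 and 149 FPKM at H-10 (3.03). Of 30 other wall glycoproteins, 11 fell and 5 rose. Arabinogalactan peptide 16-like (LOC109834739) had 7.79, 5.16 and 4.21 FPKM at H-60 and 342, 406 and 403 FPKM at H-10, with a small spread in both stages (-5.87, SE 0.21, adjusted p = 1.9e-08). The proline-rich protein DC2.15-like (LOC109839439) had 34.5, 91.6 and 307 FPKM at H-60 against 3573, 2628 and 2539 FPKM at H-10, and its H-60 libraries differed widely, replicate 3 being the highest.

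Sucrose synthases split sucrose into UDP-glucose, a precursor of cellulose, and fructose. Of 8 tested, 4 rose and none fell by limma (0 lower also at an unadjusted p of at most 0.05 and by voom). LOC109845351 had 2873, 2891 and 2467 FPKM at H-60 against 490, 181 and 254 FPKM at H-10, a change of 3.27 (SE 0.44), and LOC109820065 had 2921, 2325 and 1567 FPKM at H-60 against 927, 621 and 311 FPKM at H-10 (1.96, SE 0.48). All H-60 libraries lay above all H-10 libraries for both. Of 10 invertases, which split sucrose irreversibly, 1 rose and 1 fell (10.0% each, against 13.5% and 13.7% of all tested genes). The most abundant, the cell wall type LOC109823677, had 349, 249 and 172 FPKM at H-60 and 139, 237 and 228 FPKM at H-10, with overlap. The insoluble isoenzyme LOC109830423 had 23.6, 26.7 and 14.1 FPKM at H-60 against 1.70, 0.531 and 0.611 FPKM at H-10, or 3.53. Sucrose-phosphate synthase 1 (LOC109841155) had 136, 115 and 137 FPKM at H-60 and 53.5, 44.4 and 44.1 FPKM at H-10. Of 13 genes of trehalose phosphate metabolism, a sugar signal, 5 rose and none fell by limma (1 lower at an unadjusted p of at most 0.05, by voom, and without H-10 replicate 3 or H-60 replicate 3).

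Sugar transporters showed 6 rises and 5 falls among 27 (22.2% and 18.5%, against 13.5% and 13.7% of all tested genes). A pair of genes described as ERD6-like 16, vacuolar sugar exporters in Arabidopsis, moved in opposite directions. LOC109822749 had 250, 357 and 364 FPKM at H-60 against 18.6, 10.8 and 3.85 FPKM at H-10, and LOC109848366 had 0.196, 0.0352 and 0.436 FPKM at H-60 against 8.60, 11.1 and 18.1 FPKM at H-10. In starch metabolism 7 of 32 fell and 5 rose (2 without H-10 replicate 3, 3 without H-60 replicate 2). The shares were 21.9% lower and 15.6% higher, against 13.7% and 13.5% of all tested genes. The beta-amylase LOC109848851, which breaks starch down to maltose, had 38.1, 45.8 and 73.2 FPKM at H-60 and 436, 228 and 199 FPKM at H-10.

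Transporters of nitrogen compounds mostly rose where they changed. Of 84 amino acid, nitrate and peptide transporters, 34 rose and 6 fell (10 without H-10 replicate 1, and 10 by TPM), with a median of 0.74. Amino acid permease 4-like (LOC109836110) had 212, 252 and 240 FPKM at H-60 against 13.1, 19.1 and 9.56 FPKM at H-10, a change of 4.03 (SE 0.57). Asparagine synthetase (LOC109848100), which makes the amide first found in asparagus, had 136, 82.7 and 85.6 FPKM at H-60 against 4.57, 20.1 and 11.4 FPKM at H-10, or 3.14 (SE 0.45). The glutamine synthetase LOC109844495 had 131, 94.7 and 80.2 FPKM at H-60 against 48.5, 25.8 and 29.2 FPKM at H-10 (1.56), and the abundant cytosolic isozyme LOC109851277 had 306, 214 and 230 FPKM at H-60 and 315, 475 and 483 FPKM at H-10 (-0.75, SE 0.30, not called).

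Aquaporins, the water channels of membranes, fell in 7 of 25 and rose in 5. TIP2-1 (LOC109822726), of the vacuolar membrane, had 370, 343 and 476 FPKM at H-60 against 2696, 4217 and 4509 FPKM at H-10, and PIP2-7 (LOC109848144), of the plasma membrane, had 358, 507 and 660 FPKM at H-60 against 1504, 2719 and 2227 FPKM at H-10. PIP2-2 (LOC109836277) changed the other way, with 847, 1484 and 2038 FPKM at H-60 and 175, 183 and 221 FPKM at H-10 (2.83, SE 0.45). None of these 3 genes overlapped between the stages.

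Auxin promotes cell expansion, in part through early response genes. Of 20 SAUR genes, which respond early to auxin and promote expansion, 7 fell and none rose by limma (1 higher at an unadjusted p of at most 0.05 and 0 by voom, and 3 higher without H-10 replicate 1). SAUR50-like (LOC109837067) had 0.481, 0.207 and 0.184 FPKM at H-60 against 27.0, 22.5 and 39.8 FPKM at H-10. Of 21 Aux/IAA genes, repressors that auxin removes, 6 fell and 3 rose (5 without H-60 replicate 1). These shares were 28.6% lower and 14.3% higher, against 13.7% and 13.5% of all tested genes. Auxin-induced protein 22D-like (LOC109822661) was at 13.4, 15.5 and 36.2 FPKM at H-60 and 640, 448 and 308 FPKM at H-10, a change of -4.43 (SE 0.35), while the abundant IAA17-like (LOC109839925) had 325, 417 and 462 FPKM at H-60 and 467, 521 and 575 FPKM at H-10 and was not called.

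Of 26 genes of auxin synthesis and breakdown, 2 rose (1 without H-10 replicate 2 or H-60 replicate 1) and 2 fell. These shares were 7.69% each, below the 13.5% and 13.7% of all tested genes, so the genes named next do not stand for the list. The TAR2-like aminotransferase LOC109844997, which makes the auxin precursor indole-3-pyruvate, had 0.746, 0.201 and 0.667 FPKM at H-60 and 1.73, 4.12 and 4.70 FPKM at H-10. The DAO-like dioxygenase LOC109839668, of a family that oxidises auxin, had 23.2, 24.7 and 26.8 FPKM at H-60 and 2.93, 2.62 and 3.31 FPKM at H-10, a change of 2.71 (SE 0.38). Influx carriers moved both ways. Auxin transporter-like protein 3 (LOC109823982) had 1.92, 2.26 and 3.53 FPKM at H-60 against 15.8, 18.2 and 15.9 FPKM at H-10, and auxin transporter-like protein 1 (LOC109829760) had 199, 243 and 197 FPKM at H-60 against 9.42, 11.3 and 9.35 FPKM at H-10, or 4.27 (SE 0.29). ARF19-like (LOC109840137), an auxin response factor, had 117, 141 and 125 FPKM at H-60 against 44.8, 49.7 and 45.4 FPKM at H-10 (1.43).

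Gibberellin-regulated GASA peptides fell in 6 of 12 and rose in 3. The GASA 6-like gene LOC109822577 (chromosome 8 from 94005505 to 94006514) had 21.8, 44.2 and 36.1 FPKM at H-60 against 2385, 1312 and 2015 FPKM at H-10, a change of -5.78 (SE 0.37). GAST1-like (LOC109849730) fell by 2.43 with a wide spread, 106, 237 and 1253 FPKM at H-60 against 1506, 1559 and 2150 FPKM at H-10. The DELLA protein SLR1-like (LOC109834899), a repressor of gibberellin responses, had 39.1, 53.7 and 43.9 FPKM at H-60 against 9.03, 11.4 and 15.4 FPKM at H-10 (1.86, SE 0.21). Copalyl diphosphate synthase (LOC109832398), the first step of gibberellin synthesis, had 5.03, 6.31 and 7.37 FPKM at H-60 against 0.533, 0.665 and 1.10 FPKM at H-10, or 2.03. The gibberellin 2-beta-dioxygenase LOC109823202, which inactivates gibberellin, had 17.6, 28.1 and 20.7 FPKM at H-60 and 24.2, 19.1 and 7.17 FPKM at H-10 and did not pass the test. Phytochrome-interacting factors, bHLH proteins that promote elongation, fell in 3 of 4, and PIF4-like (LOC109833058) had 1.84, 0.880 and 0.623 FPKM at H-60 against 13.6, 12.1 and 16 FPKM at H-10.

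In abscisic acid signalling 2 of 23 were higher (4 without H-60 replicate 1) and none lower by limma (3 lower at an unadjusted p of at most 0.05 and 0 by voom, and 1 lower without H-25 replicate 1, H-25 replicate 2 or replicate 2 of H-40). The share higher was 8.7%, against 13.5% of all tested genes, and 13.7% of all tested genes were lower. The kinase SAPK3-like (LOC109820020) had 51.6, 58.4 and 62.0 FPKM at H-60 and 69.5, 52.3 and 49.3 FPKM at H-10, and protein phosphatase 2C 53 (LOC109822304) had 37.9, 17.5 and 24.2 FPKM at H-60 and 41.5, 37.1 and 38.9 FPKM at H-10 (adjusted p = 0.054). Of 5 genes of abscisic acid synthesis and breakdown, 1 rose and 2 fell, with a median of -0.38. Abscisic acid 8'-hydroxylase 2 (LOC109843769), which breaks the hormone down, rose by 3.24 (SE 0.26). It had 41.4, 42.1 and 35.4 FPKM at H-60 against 2.29, 3.36 and 4.54 FPKM at H-10.

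Jasmonate genes fell in 11 of 36 and rose in 2 (4 without H-25 replicate 2, 1 without H-60 replicate 2 or 3). These shares were 30.6% lower and 5.56% higher, against 13.7% and 13.5% of all tested genes. TIFY 5A-like (LOC109829574), a repressor of jasmonate responses, was at 0 in every H-60 library and at 30.1, 31.4 and 11.3 FPKM at H-10, at least 197-fold lower at H-60 with 3 fragments over the 3 H-60 libraries as the floor. The amido synthetase JAR1-like (LOC109828888), which makes the active hormone conjugate, had 95.6, 76.5 and 69.4 FPKM at H-60 against 24.3, 19.1 and 19.3 FPKM at H-10 (1.89). In the brassinosteroid list, the oxidase P450 85A-like (LOC109822473), of the last steps of synthesis, had 0.216, 0 and 0.123 FPKM at H-60 against 27.0, 28.7 and 18.9 FPKM at H-10, and its relative 85A1-like (LOC109845117) had 13.3, 20.6 and 17.4 FPKM at H-60 and 14.3, 8.22 and 4.80 FPKM at H-10.

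The reference gene of the study's RT-qPCR, a ubiquitin-conjugating enzyme (LOC109832941), had 192, 189 and 194 FPKM at H-60 and 209, 195 and 208 FPKM at H-10 (-0.09, SE 0.13, adjusted p = 0.61).

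Families of transcription factors that hold known regulators of the secondary wall had more rises than falls, and wall regulators were not tested as a list of their own. In the NAC family 10 of 41 rose and 2 fell (1 without H-10 replicate 2, 4 by voom), in the MYB family 21 of 79 rose and 9 fell, and in the homeobox family 17 of 57 rose and 6 fell. In this order the shares higher were 24.4%, 26.6% and 29.8%, against 13.5% of all tested genes. The shares lower were 4.88%, 11.4% and 10.5%, and those of the MYB and homeobox families were near the 13.7% of all tested genes. NAC73-like (LOC109840772), whose Arabidopsis relative acts in fibres, had 72.9, 57.4 and 37.8 FPKM at H-60 against 2.23, 1.97 and 1.49 FPKM at H-10, a change of 4.26 (SE 0.29). The MYB 308 gene LOC109820197 (chromosome 8 from 4748178 to 4750365) had 80.6, 70.4 and 52.6 FPKM at H-60 and 2 fragments in all at H-10, a ratio of 1800 (interval 499 to 14900). Knotted-1-like 3 (LOC109837832) had 61.0, 61.3 and 33.7 FPKM at H-60 against 3.62, 7.27 and 2.99 FPKM at H-10. On the falling side, MYB124 (LOC109833888), which in Arabidopsis stops divisions of the stomatal lineage, was at 0.521, 0.519 and 0.0765 FPKM at H-60 and 16.5, 16 and 13.1 FPKM at H-10, and growth-regulating factor 6-like (LOC109834278) had 0.630, 0.238 and 0.301 FPKM at H-60 and 6.92, 8.84 and 9.12 FPKM at H-10 (-2.74).

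A further 4 regulators were chosen after their values were seen, since their Arabidopsis or barley namesakes belong to wall thickening or to the MYB family. MYB26-like (LOC109835796) had 40.3, 45.8 and 29.6 FPKM at H-60 and no fragment in any H-10 library, at least 848-fold higher at H-60. NAC43 (LOC109822153), a master switch of fibre walls in Arabidopsis, had 39.8, 40.8 and 31.9 FPKM at H-60 against 5.60, 8.04 and 4.30 FPKM at H-10. MYB46-like (LOC109822703), which acts below such NAC factors, had 33.7, 18.5 and 15.4 FPKM at H-60 against 5.93, 3.67 and 1.82 FPKM at H-10. Hv33-like (LOC109840692) had 239, 232 and 166 FPKM at H-60 and 26.8, 11.7 and 22.7 FPKM at H-10.

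Markers of cell types were read beside these lists, as was the spread between libraries of a stage. All 6 markers of xylem vessels and fibres rose, and their summed level was 5551, 5237 and 3204 FPKM in the H-60 libraries and 238, 144 and 47.9 FPKM in the H-10 libraries. Several of them are members of the wall lists above and are not separate evidence. In bulk tissue, fewer cells of a type and less RNA per cell cannot be told apart. Of 17 phloem markers 6 rose and 1 fell, with sums of 264 to 296 FPKM at H-60 and 178 to 253 FPKM at H-10. Epidermal markers summed to 86.6 to 206 FPKM at H-60 and 68.8 to 109 FPKM at H-10, and stomatal markers to 57.6 to 65.7 FPKM at H-60 and 69.0 to 74.4 FPKM at H-10. Of 10 shoot meristem markers 3 rose and none fell by limma (1 lower at an unadjusted p of at most 0.05, 0 by voom, and 1 without H-60 replicate 3). Photosystem and antenna genes, the sign of green tissue, rose in 7 of 38 and fell in 2. The shares were 18.4% and 5.26%, against 13.5% and 13.7% of all tested genes. The rises were 13 without H-10 replicate 2, 11 without H-60 replicate 3 and 4 without H-10 replicate 3. The falls were 1 without H-10 replicate 2 or H-60 replicate 3. The sums of the list overlapped, 11720 to 16830 FPKM at H-60 and 6956 to 14320 FPKM at H-10. Heat shock proteins summed to 3614 to 3873 FPKM at H-60 and 3766 to 6441 FPKM at H-10, where replicate 1 was the highest.

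Replicate 3 of H-60 had the lowest median change of its stage in the laccase list (2.81, against 3.40 and 3.40 in replicates 1 and 2) and in the list of CESA4 and CESA7 (6.21, against 7.08 and 6.91). Replicate 1 of H-10 stood lowest of its stage in the histone list (-0.67 relative to the mean of H-10, against 0.20 and 0.51). Their part in single results was not tested beyond leaving each library out.

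The change between H-60 and H-10 was then read against the middle step. Of the 5536 DEGs, 5064 (91.5%) had the same sign in H-40 minus H-25, against 77.6% of all tested genes. A call there in the same direction was found for 3056 DEGs (55.2%), against 22.6% of all tested genes. A further 2437 were not called in the middle step, and 43 were called in the opposite direction. Over the 4 stages, the median DEG had covered -2.76% of its change at H-25, so it lay near H-10, and 72.8% at H-40. The step from H-25 to H-40 was the largest for 3736 DEGs (67.5%), the step from H-40 to H-60 for 1186 (21.4%) and that from H-10 to H-25 for 614 (11.1%). Only the step from H-10 to H-25 also changes the height of the segment above the surface. The distance of the segment from the tip was not held in any step.

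**Figure D4:**
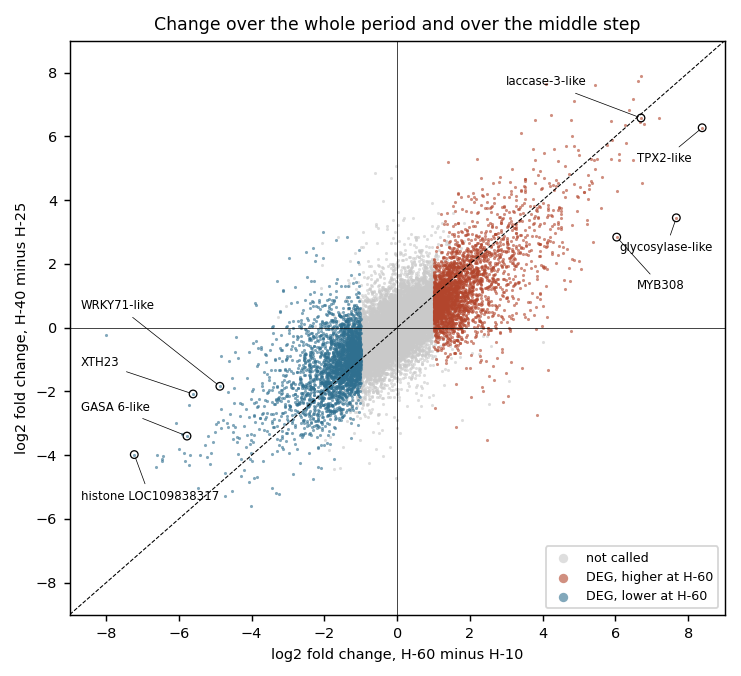
Log2 fold change of each tested gene for H-60 minus H-10 on the x axis and for H-40 minus H-25 on the y axis, with DEGs of H-60 vs. H-10 coloured by direction, genes of the text marked by name and the line of equal change dashed. Laccase-3-like lies near the line, and the glycosylase-like gene, MYB 308, XTH23 (LOC109840405) and WRKY71-like changed more over the whole period than in the middle step.

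A direct test of the difference between both changes called 885 of the 20352 genes (4.35%), 423 positive (2.08%) and 462 negative (2.27%). Among DEGs, 607 had changed further in their own direction than in the middle step and 27 less. The DEGs were chosen for a large H-60 minus H-10 change, so such an excess is built into the choice and is description only. The number depended on single libraries. Leaving out H-25 replicate 2 gave 2117. Leaving out replicate 3 of H-25 gave 430 and replicate 1 of H-25 gave 457. The number was 452 with replicate 2 of H-10 left out, 468 with replicate 2 of H-60, 569 with replicate 1 of H-60, 529 with replicate 1 of H-40 and 546 with replicate 3 of H-40. Genes chosen for exceeding the middle step seldom have it as their largest, so their steps are given as a description only. Of 297 such rises, 57 had their largest step between H-10 and H-25, 22 in the middle and 218 between H-40 and H-60. Of 310 such falls, 160 had it between H-10 and H-25, 21 in the middle and 129 between H-40 and H-60. Among all 2786 falls the last step was the largest for 492 and the first for 416.

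Among the falls with an early step were 3 WRKY genes. WRKY24 (LOC109846772) had 36.4, 34.3 and 34.0 FPKM at H-60 against 176, 246 and 107 FPKM at H-10, and its H-25 and H-40 means of 25.9 and 42.0 FPKM lay with H-60. WRKY41 (LOC109827901) had 26.4, 17.1 and 13.9 FPKM at H-60 against 204, 269 and 105 FPKM at H-10, and WRKY71-like (LOC109841231) had 12.3, 4.94 and 7.68 FPKM at H-60 against 225, 381 and 199 FPKM at H-10. WRKY proteins bind DNA and are known from defence and wounding. The whole family was split, with 10 of 38 lower, 7 higher and a median of 0.42. These shares were 26.3% lower and 18.4% higher, against 13.7% and 13.5% of all tested genes. Scarecrow-like protein 9 (LOC109829853), the ACC oxidase LOC109841065, which makes ethylene, and XTH23 (LOC109840405) shared the early step, and for these 3 genes and WRKY24 the difference from the middle step was called in all 25 alternatives that gave it. For WRKY41 and WRKY71-like it was called in 19 and 18 of them. Since H-10 was the only stage cut at 3 to 6 cm, position and stage cannot be told apart for this group.

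Among the rises with a late step, MYB 308 had stage means of 0.0376, 0.0205, 6.75 and 67.9 FPKM in order of height, H-10 first. The glycosylase-like gene had 0 at H-10 and H-25, 10.8 FPKM at H-40 and 211 FPKM at H-60. In the same order SMR2-like had means of 5.40, 7.37, 5.59 and 37.1 FPKM, and the phloem protein 2-A1-like gene LOC109835905 had means of 0.0922, 0.387, 0.888 and 11.4 FPKM. All 4 genes were much higher at H-60 than at any other stage, with adjusted p-values of the difference (limma) of 0.0015, 0.00069, 0.011 and 0.00098. For MYB 308 and the glycosylase-like gene the difference was called in 24 of 25 alternatives and lost its call by voom on recovered fragments, and for SMR2-like and the phloem protein it was called in every alternative that gave it.

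**Figure D5:**
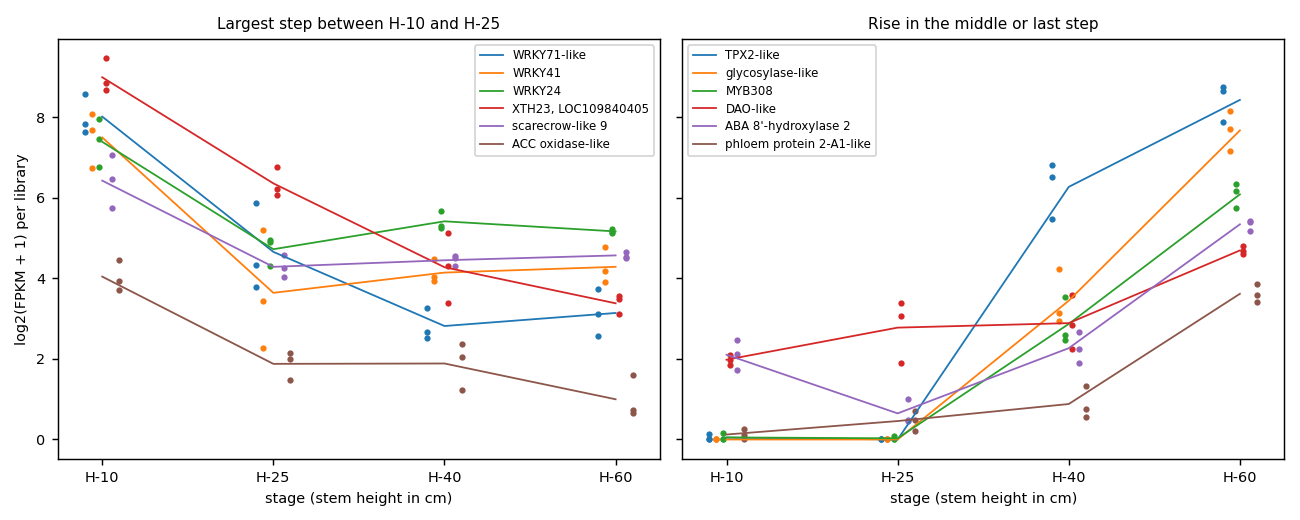
Levels of 6 genes with their largest fall between H-10 and H-25 (left) and 6 genes that rose in the middle or last step (right), with log2(FPKM + 1) on the y axis, 1 point per library and lines through the stage means. On the left the points of H-25, H-40 and H-60 lie below those of H-10, and on the right the H-60 points lie above all other stages.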

How the data were processed

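A total of 12 strand-specific libraries were sequenced, 3 per stage. HISAT2, StringTie, featureCounts and DESeq2 appear in the submitters' processing notes, without options. The authors deposited FPKM per gene, beside gene length and 4 columns of means per group, which were left out. In each library, FPKM multiplied by gene length came in whole steps (tolerance 0.01), from which fragments were recovered. The size of the step was not set by the fragment total of the library. Median-of-ratios factors of the deposited values were 1.017 in all 12 libraries, so the median-of-ratios setting below nearly repeats the main fit. Of the genes, 32237 carry a RefSeq ID and have the same start and end in Aspof.V1, from which names and coordinates were taken.

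Log2(FPKM + 1) was fitted with limma 3.58.1 (R 4.3.3, eBayes with trend) over all 12 libraries with 1 mean per stage, for H-60 minus H-10, H-40 minus H-25 and the difference of both. Figures were drawn with matplotlib 3.10.9. On simulated data with 200 of 20352 genes changed between H-60 and H-10, 31% of 2-fold and 85% of 4-fold changes were recovered with 7 false calls. A 2-fold change lies on the fold threshold itself. In the data 43.9% of genes passed the adjusted p, far more than were changed here, so these shares do not give the power in the data.

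Lists were built from words in gene descriptions. Genes named are the 12 largest rises and falls among described DEGs whose libraries did not overlap and whose higher stage averaged 10 FPKM or more, the genes of the study's primer table, and of each list the 4 most abundant members and the largest called rise and fall (all members of a list of 4 or fewer). Genes outside this rule were chosen after their values were seen and are marked as such. The members, lists and rule were chosen with earlier results of these data known. Other settings tried were a pseudocount of 0.1 or 0.5, no filter or a stricter one, TPM, median-of-ratios and quantile scaling, other thresholds, only H-60 and H-10 in the model, 2 variance priors, voom on recovered fragments, a replicate block and leaving out each library.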

Additional observations from a re-analysis of the deposited data

How the results depend on the processing

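The 5536 DEGs of H-60 vs. H-10 ranged from 5095 to 5856 when each library was left out in turn. Without a fold criterion they were 8943, with 4456 higher and 4487 lower, and the same sign in H-40 minus H-25 was then found for 8040 and a call in the same direction for 5334. With the stricter filter 1765 genes were higher, against 2750, since fewer genes were tested, and 68.1% of the DEGs were called there the same way. Every other alternative shared at least 87.8% of them. The 885 genes whose change differed from the middle step were 538 by voom, 556 with the stricter filter and 2488 at an unadjusted p, and ranged from 430 to 2117 with a library left out. The cause was not tested. Of 214 named DEGs, 198 kept their call in every one of the 26 alternatives that tested them. So did all 148 with a change of at least 2 on the log2 scale, and none reversed. Some genes of low level were not tested in every alternative. The replicate block gave 5611 DEGs, 2786 higher and 2825 lower, and same-numbered libraries did not deviate together (correlations of -0.0177, 0.0408 and 0.115), so the numbers were not taken as a pairing. Single libraries were not tested as outliers within stages of 3. In the simulation 44% of 2-fold changes passed the adjusted p, so small changes are underrepresented.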

Other observations

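Asparagus stores part of its carbohydrate as fructans, chains of fructose built by fructosyltransferases. All 4 tested genes described as 6(G)-fructosyltransferase-like were looked at after the values of 1 were seen, and 3 of them fell. LOC109819545 had 9.71, 7.85 and 12.7 FPKM at H-60 against 123, 271 and 428 FPKM at H-10, a log2 fold change of -4.48 (SE 0.37, limma adjusted p = 4.0e-06), and every H-60 library lay below every H-10 library. LOC109851216 had 11.2, 13.8 and 14.9 FPKM at H-60 and 28.3, 58.8 and 66.5 FPKM at H-10, a change of -1.79 (SE 0.30). LOC109824252 changed by -1.14 and lost its call without H-10 replicate 2 or 3. The most abundant, LOC109851284, had 111, 185 and 285 FPKM at H-60 and 215, 384 and 559 FPKM at H-10 and was not called.

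The largest fall among all tested genes was that of a gene without a description, annotated as a pseudogene (LOC109835744, chromosome 3 from 110533615 to 110535298 in Aspof.V1), also named after its values were seen. It had 2.60, 4.24 and 9.65 FPKM at H-60 against 1574, 1423 and 1535 FPKM at H-10, a log2 fold change of -8.01 (SE 0.51, limma adjusted p = 6.8e-07). In order of height its stage means were 1510, 1402, 937 and 5.50 FPKM, and the largest step was the last, between H-40 and H-60. At H-25 the libraries ranged from 585 to 2866 FPKM.

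Genes of other pathways moved in both directions. Of 26 genes of flavonoid and anthocyanin synthesis 9 rose and 7 fell, and chalcone synthase 1-like (LOC109823892), which makes the first flavonoid, had 0.929, 0 and 0.0493 FPKM at H-60 against 8.85, 65.6 and 11.5 FPKM at H-10 (-3.99, SE 0.65). Of 44 genes of cuticle, wax and suberin lipids 13 rose and 8 fell (5 without H-10 replicate 2 or H-60 replicate 2). These shares were 29.5% higher and 18.2% lower, against 13.5% and 13.7% of all tested genes. The lipid-transfer protein LOC109830740 had 4656, 2623 and 2375 FPKM at H-60 against 536, 1080 and 406 FPKM at H-10 (2.31), and its relative LOC109830036 had 59.7, 13.1 and 19.4 FPKM at H-60 against 125, 272 and 116 FPKM at H-10 (-2.62). In each of these 3 genes replicate 1 was the highest H-60 library and replicate 2 the highest H-10 library.

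Among 34 genes of light signalling and the circadian clock 7 rose and 5 fell (20.6% and 14.7%, against 13.5% and 13.7% of all tested genes). Phototropin-1A-like (LOC109822415), a blue light receptor, had 14.8, 19.3 and 22 FPKM at H-60 against 124, 82.3 and 83.8 FPKM at H-10 (-2.30, SE 0.24), and CONSTANS-LIKE 13 (LOC109849634) had 69.7, 79.0 and 68 FPKM at H-60 against 14.2, 16.6 and 12.7 FPKM at H-10 (2.24, SE 0.16). Of 88 calcium sensors and kinases 9 rose and 16 fell (10.2% and 18.2%). A calmodulin-7 gene (LOC109831731), a calcium-binding protein, had 143, 158 and 136 FPKM at H-60 against 433, 531 and 559 FPKM at H-10 (-1.79, SE 0.21), while the copy LOC109822109 had 605, 716 and 544 FPKM at H-60 and 827, 530 and 513 FPKM at H-10 and was not called. In the cytokinin list 6 of 32 rose and 2 fell (1 without H-10 replicate 3), or 18.8% and 6.25%. The response regulator ARR17-like (LOC109850434) had 3.64, 7.57 and 6.55 FPKM at H-60 against 48.4, 26.0 and 31.6 FPKM at H-10 (-2.39, SE 0.29).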
